A study of Mus musculus with 4 samples.

Results

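The regions described here are stretches of chromatin that carried acetylated lysine 16 of histone H4 (H4K16ac) in neural progenitor cells (NPC) and lay far from every such stretch called in the embryonic stem cells (ESC) from which those progenitors came. They are enriched regions, called islands, of moderate width. An island was included when it lay on chromosomes 1 to 19, was wider than 2000 bp and narrower than 8000 bp, held fewer than 120 reads per kb, and was separated by more than 100 kb, edge to edge, from the nearest ESC island. The rule was met by 1548 of the 48278 islands in the NPC list, and all 1548 are counted below as members. They held 438870 reads, which was 1.80% of NPC island reads (exact 95% interval 1.79% to 1.80%). Distance from the ESC list, NPC width and NPC read density chose the members, so these values are given as a description and support nothing. The same distance criterion was met by 5.33% of all 48170 NPC islands on these chromosomes, by 5.6% of the 27635 within the same width and density limits, and by 7.98% of the 19397 of those that touched no ESC island.

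H4K16ac was profiled by chromatin immunoprecipitation and sequencing in 46c cells, a mouse ES cell line with a GFP reporter at Sox1, a transcription factor gene switched on as cells become neural. The ESC group was undifferentiated 46c ESC, and the NPC group was the same line after 5 days of differentiation with NB27 and Neuro2 supplements, sorted for GFP. Both groups therefore carry the Sox1-GFP allele, come from 1 cell line and were profiled with the same antibody lot on chromatin cut with micrococcal nuclease. Each group is 1 library with 1 list of islands, and the matching input libraries were not analysed here.

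Acetylation of this lysine is laid down mainly by the acetyltransferase MOF (KAT8), removes a positive charge from the H4 tail and loosens the folding of nucleosome arrays in vitro. In flies it marks the male X chromosome during dosage compensation, and in mammalian cells it is found at active genes and at enhancers. A desert here means a long stretch with no called ESC island, which is not the same as a stretch without genes.

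Called islands numbered 40570 in ESC and 48278 in NPC, with 17935144 and 24386370 reads inside them. Reads outside islands were not part of either list, so an ESC desert is a stretch with no called island and may still carry the mark below the calling threshold. With a single library per cell type, nothing below could be checked against replicates and no test was run. Intervals cover counting error of reads or treat islands as independent draws, which neighbouring islands may not be. All positions are on mouse genome build mm9. No gene annotation of that build was used here, so regions are named by position.

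Members were mostly short and of modest density. Their median width was 3600 bp (quartiles 2800 and 5000 bp), and 921 of 1548 were no wider than 4000 bp whereas 182 were 6200 bp or wider. The median member held 253 reads, for which counting error alone is 6.29%, and reads ranged from 120 to 848. Median density was 69.2 reads per kb with an SD across members of 9.86 reads per kb, where counting error alone would give 4.46 reads per kb. Densities ran from 45.8 to 116 reads per kb, with 190 members under 60 reads per kb and 13 at 100 reads per kb or more. The members thus varied among themselves by more than read counting accounts for, within a range that the rule bounds from above only.

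Of the limits, the density limit set aside no island, since 0 NPC islands of this width beyond 100 kb from ESC islands reached 120 reads per kb. The densest 3 members had 116, 112 and 112 reads per kb. The 100 kb limit cut through a continuous range: the closest 3 members, starting at 9186001 (chromosome 3), 73345801 (chromosome 9) and 37707601 (chromosome 13), were 100.2 kb from an ESC island with 83.4, 70.9 and 74.1 reads per kb. The 3 islands just outside, starting at 81768001 (chromosome 6), 136461001 (chromosome 7) and 37047801 (chromosome 8), were 100 kb away with 55.9, 80 and 50.6 reads per kb. The width limits did the same, with 134 members at the lowest width of 2200 bp beside 106 islands of exactly 2000 bp left out, and 13 members at the highest width of 7800 bp beside 18 islands of 8000 bp left out. The 3 widest members, from 112287201 (chromosome 6), 98298201 (chromosome 9) and 129341601 (chromosome 5), held 613, 598 and 567 reads. The 3 leading islands of 8000 bp, starting at 51367601 (chromosome 7), 43245801 (chromosome 9) and 114028601 (chromosome 11), held 831, 675 and 661 reads.

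Members were slightly less dense than NPC islands of the same width nearer to ESC islands. Within the same limits, median density was 72.2 reads per kb (SD 10.5) in the 10995 islands 10 to 100 kb from an ESC island, 73.6 (SD 10.6) in the 6854 up to 10 kb away, and 74.3 (SD 11.4) in the 8238 that overlapped an ESC island. The order was the same among islands of up to 4 kb, where the median was 69.2 reads per kb in members (68.5 to 70) and 72.1, 73.5 and 74.6 in the other classes. Among islands over 6 kb it was 70 reads per kb in members (68.5 to 71.9) and 73.2, 74.5 and 74.7 in the others. The step between members and any other class was smaller than the SD across islands of either.

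**Figure D1:**
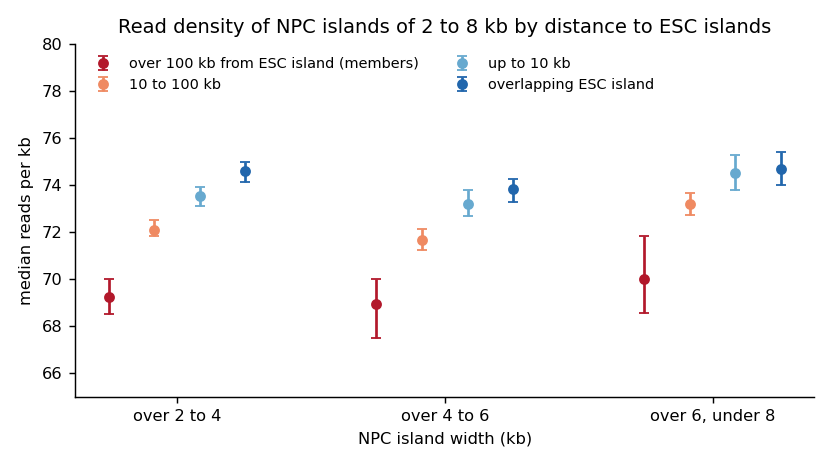
Median reads per kb (vertical axis, which starts at 65) of NPC islands within the width and density limits, in 3 bands of width and 4 classes of distance to the nearest ESC island; points are medians over islands and bars 95% intervals from order statistics, which treat islands as independent draws. In each band the members have the lowest median, 69.2 reads per kb in the narrowest band against 74.6 in islands that overlapped an ESC island.

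Members with the most reads were near the upper width limit. The island at 36253201 to 36260800 on chromosome 17 contained 848 reads over 7.6 kb, or 112 reads per kb (exact Poisson interval 104 to 119), 121 kb from the nearest ESC island and 0.8 kb from another NPC island. The one at 180208601 to 180216200 on chromosome 2 had 719 reads at 94.6 reads per kb (87.8 to 102), 160 kb from an ESC island. The island at 12595601 to 12603000 on chromosome 7 held 696 reads at 94.1 reads per kb (87.2 to 101), 212.6 kb away. The other 2 began at 114050601 on chromosome 6 and 46835801 on chromosome 4, with 682 and 672 reads. None of the 5 lay in a cluster of more than 4 members, by the definition of clusters given below.

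The densest member was narrower, at 21079601 to 21082800 on chromosome 16, with 371 reads in 3.2 kb, or 116 reads per kb (104 to 128). It was followed by the islands from 143612001 on chromosome 7 (112 reads per kb, 98.7 to 127), the chromosome 17 island above, and those from 85686801 on chromosome 7 (110.5 reads per kb, 97.0 to 125) and 61467801 on chromosome 4 (109 reads per kb, 96.5 to 122). These intervals overlap each other, so the order among the 5 is within counting error.

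Most members lay not far beyond the limit. Their median distance to an ESC island was 143.7 kb (quartiles 117.6 and 189.4 kb), 22.6% lay 150 to 200 kb away, and 111 lay beyond 300 kb. The most isolated member, 112147001 to 112149200 on chromosome 11, was 913 kb from any ESC island and 296 kb from any other NPC island, with 142 reads in 2.2 kb. The next were at 123748201 to 123750400 on chromosome 10 (814 kb, 154 reads), 41299801 to 41302600 on chromosome 1 (782.6 kb, 176 reads), 5991801 to 5994200 on chromosome 8 (643.4 kb, 150 reads) and 112445201 to 112449800 on chromosome 11 (612.4 kb, 269 reads). Density differed little with distance. It had a median of 70 reads per kb (SD 10.04) at 100 to 120 kb and of 67.4 reads per kb (SD 10.01) at 300 to 500 kb, and 63.5 reads per kb in the 11 members farther out.

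Members were the most common but not the only NPC islands so far from ESC islands. Of the 2568 NPC islands beyond 100 kb, members made up 60.3% by number, 52.9% by bases and 50.5% by reads. Islands within these width and density limits were also the most common in the whole list, at 27635 of the 48170 on these chromosomes. Their lead beyond 100 kb is therefore no trait of deserts. Below 120 reads per kb, islands of 8000 bp or more numbered 357, were up to 48 kb wide and held 39.7% of the reads there, and islands of at most 2000 bp numbered 627 and held 9.15%. The remaining 36 islands, of either width, reached 120 reads per kb and held 0.71%.

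Along the chromosomes members came in groups. Another member lay within 100 kb of 1134 members (73.3%, exact interval 71.0% to 75.4%), and the median distance to the nearest member was 21.6 kb. Joining members over gaps of up to 100 kb gave 702 groups, of which 414 were single members (26.7% of members), 106 were pairs (13.7%) and 182 were clusters of 3 or more, which together held 922 members (59.6%, 57.1% to 62.0%). Clusters of 3 or more were found on all 19 chromosomes. The 75 clusters of 5 or more held 36.6% of members, and the 12 clusters of 10 or more, on 9 chromosomes, held 10.7%. Clusters of 3 or more spanned a median of 97.6 kb, from 19.2 to 526.4 kb.

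By distance to the nearest ESC island, another member lay within 100 kb of 63.6% of members at 100 to 120 kb, 73.1% at 120 to 150 kb, 84% at 150 to 200 kb, 78.5% at 200 to 300 kb and 68% at 300 to 500 kb. Among the 11 members beyond 500 kb it was 45.5%. By the rule, islands on the ESC side of a member near the limit are closer than 100 kb to the ESC island and are no members. Whether this has a part in the lower share at 100 to 120 kb was not tested.

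Grouping of this kind was not found in members alone, and members differed mainly in their long tail of isolated islands. In the class 10 to 100 kb from ESC islands, 82.9% of islands had another of the class within 100 kb, and in the class up to 10 kb away 75.5% did, against 73.3% of members. These classes hold 10995 and 6854 islands, so they are more crowded to begin with. Clusters of 3 or more, joined in the same way, held 66.9% and 53.3% of islands in those classes and 63.3% of those that overlapped an ESC island, against 59.6% of members. The median distance to the nearest island of the same class was 16 kb and 33.6 kb in them, on either side of the members' 21.6 kb, but the upper quartile was 63.6 and 97.4 kb against 115.4 kb in members. The nearest NPC island of any kind was a median of 9.2 kb from a member (8 to 10.8 kb), 4.8 kb from an island of the middle class and 2.6 kb from one up to 10 kb away. No other NPC island lay within 100 kb of 163 members (10.5%, 9.04% to 12.2%), against 2.84% and 0.875% of the other classes. The nearest NPC island was another member for 797 members (51.5%), a narrow island for 344, an island of 8000 bp or more for 220 and another intermediate island for 187. Members were 60.3% of NPC islands beyond 100 kb, so the 51.5% does not show that members lie next to members more than to other islands.

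**Figure D2:**
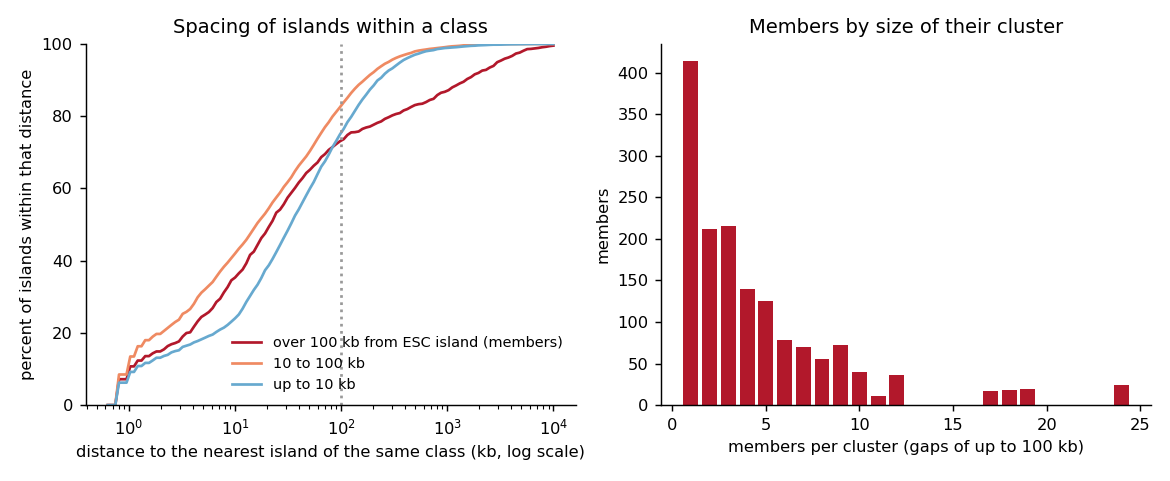
Left, the percent of islands (vertical axis) with another island of the same class within a given distance in kb (horizontal log axis) for members and the 2 other classes that touch no ESC island, with a dotted line at 100 kb; right, members counted by the number of members in their cluster. At 100 kb the curves stand at 73.3% for members, 82.9% at 10 to 100 kb and 75.5% up to 10 kb, and the member curve then flattens, while the bars show 414 single members and 1 cluster of 24.

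Broad NPC islands were near fewer of the members. An island of 8000 bp or more lay within 100 kb of 695 members (44.9%, 42.4% to 47.4%), against 64.9% in the class 10 to 100 kb away and 77.6% in the class up to 10 kb away. Likewise, 393 members (25.4%) had an NPC island within 2 kb, against 36.0% and 46.7%. Had NPC islands been merged over gaps of up to 2000 bp, 330 members (21.3%, 19.3% to 23.4%) would have belonged to a domain of at least 8000 bp, against 31.1% and 41.7%. Joining such gaps would thus leave most members below that width.

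Single members were the least dense. The 414 single members had a median of 65.97 reads per kb (65 to 66.9) and a width of 3200 bp, and a broad NPC island lay within 100 kb of 18.6% of them. Members in pairs had 69.4 reads per kb (67.4 to 71.2), and those in clusters of 3 to 4, 5 to 9 and 10 or more had 70.7, 70.7 and 69.8 reads per kb. Median width went from 3600 bp in pairs to 4200 bp in the largest clusters, and the share with a broad NPC island within 100 kb was 38.2%, 45.5%, 64.8% and 69.7% in the same order. The SD of density across members was 7.995 to 10.9 reads per kb in these groups, larger than the differences between their medians.

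The largest cluster was close to the distal end of chromosome 2, at 178621601 to 179148000. It held 24 members with 8126 reads over 526.4 kb, together with 4 NPC islands of 8000 bp or more and 3 of at most 2000 bp. All 31 islands covered 30.9% of the span. Member widths ran from 2.2 to 7.4 kb around a median of 4.7 kb, and densities from 59.7 to 85 reads per kb around 72.7. The first member, 178621601 to 178625800, had the highest density of the cluster with 357 reads in 4.2 kb. The lowest, 178999801 to 179002800, had 179 reads in 3 kb. Gaps between neighbouring members ran from 1 to 75 kb with a median of 12 kb, and the nearest ESC islands were 112 kb before and 106 kb after the cluster. Its members lay mostly before the centre of the span, with wider spacing after it.

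The next 3 clusters, of 17 to 19 members, were each on another chromosome. The cluster at 115664001 to 116058200 on chromosome 9 held 19 members with 5192 reads, a median density of 68.6 reads per kb (range 48 to 81.7) and a median gap of 10.9 kb. The one at 94854001 to 95321600 on chromosome 15 held 18 members with 4320 reads at a median of 67.7 reads per kb (55.6 to 95.3), and no island of 8000 bp or more lay inside it. The one at 96971601 to 97249000 on chromosome 5 held 17 members with 4804 reads at 67.1 reads per kb (54.3 to 80.4) in 277.4 kb. Densities in the 3 overlapped one another and those of the chromosome 2 cluster.

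The cluster at 152059001 to 152261000 on chromosome 4 was made of 12 members and no other NPC island. Its members had 63.7 to 82.7 reads per kb around a median of 74.7. Added up they had 75.3 reads per kb (73.2 to 77.4), the highest value of the 10 clusters with most members. The interval overlaps that of the chromosome 7 cluster below, at 73.1 reads per kb (70.7 to 75.6), so this rank is within counting error. The cluster at 121408401 to 121683000 on chromosome 8, with 12 members, had 4 islands of 8000 bp or more between them, up to 24.8 kb wide, and NPC islands covered 44.4% of it. The one at 86568201 to 86943800 on chromosome 15 also had 12 members, with 3 broad islands between them. The one at 48946201 to 49299800 on chromosome 17 had 11 members and 5 broad islands. The most compact of the 10 was at 141090001 to 141190800 on chromosome 7, where 10 members, 1 broad and 1 narrow island covered 56.9% of 100.8 kb. The loosest, at 29401001 to 29841000 on chromosome 9, held 10 members and no other NPC island, with a median gap of 48.6 kb and a cover of 8.55%. The last 2 of these 10 were tied at 10 members with 2 more clusters that held fewer reads, from 126185401 on chromosome 5 and from 40820001 on chromosome 1. With those included, the median density of members lay between 65.3 and 74.7 reads per kb, while the median gap ran from 6.2 to 48.6 kb.

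**Figure D3:**
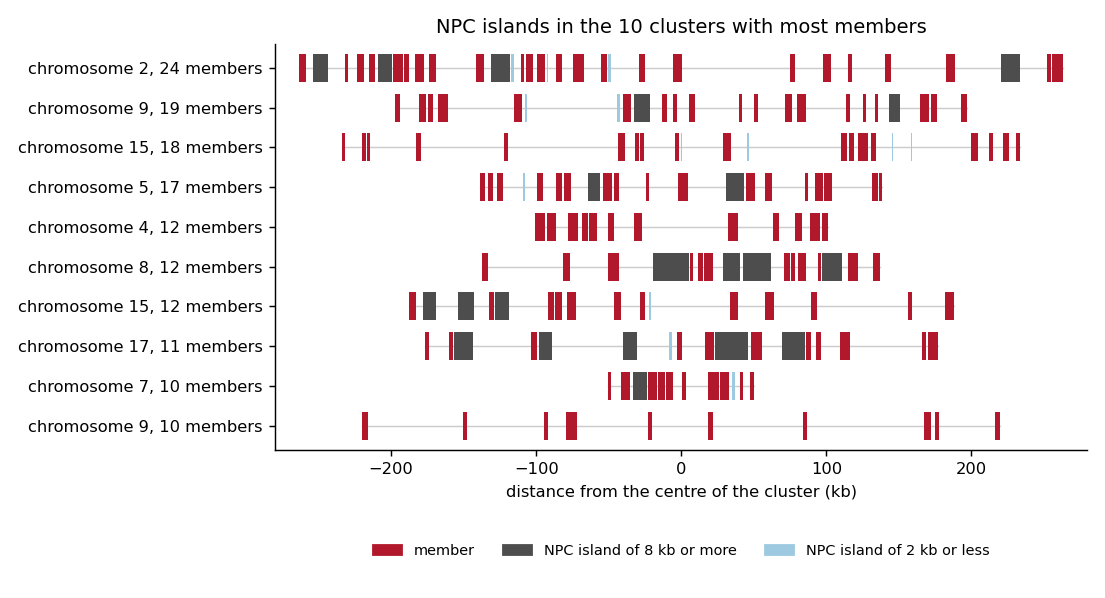
NPC islands in the 10 clusters with most members (ties broken by reads), 1 row per cluster, drawn to scale against the distance in kb from the centre of the cluster; red marks members, dark grey islands of 8000 bp or more and light blue islands of at most 2000 bp. The chromosome 4 row and the lowest row hold members only, whereas the chromosome 8 and 17 rows hold 4 and 5 broad islands, and spans run from 100.8 to 526.4 kb.

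Among all 182 clusters of 3 or more, 69 (37.9%) had an NPC island of 8000 bp or more inside their span, and 79 were made of members only. Of the 75 clusters of 5 or more, 40 had one. NPC islands covered a median of 28.4% of the span of clusters of 3 or more, and members alone 20.3%.

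Seen from the ESC side, members were concentrated in few deserts. Between neighbouring ESC islands there were 2572 stretches of over 200 kb, with a median length of 310.7 kb and a longest of 7013 kb. A member was found in 608 of them (23.6%, 22.0% to 25.3%), an NPC island of any kind in 1569 (61.0%) and none in 1003. Here and below, an NPC island counts for a desert only when it lies wholly inside it. The 1569 include deserts with NPC islands only within 100 kb of an ESC island, where no member can lie. An NPC island over 100 kb from ESC islands was found in 892. All 1548 members lay in the 2572 stretches, since 0 lay beyond the first or last ESC island of a chromosome. Of the 608 deserts, 319 held exactly 1 member, whereas the 85 with 5 or more held 675 members (43.6%). The 110 deserts with most members, which were 4.28% of all deserts, held 50% of the members. That is a share by number, and many deserts had little room for a member. The 1222 deserts of 200 to 300 kb held 51.3 Mb of the 477.7 Mb open to members. Members need 100 kb to the ESC island on either side, and 477.7 Mb of desert met that condition, which gave 3.24 members per Mb. Here and below, such length is plain distance along the build. Stretches without known sequence, or where reads cannot be placed, were not taken out.

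Longer deserts did not hold more members for their length. The share with a member was 15.1% (13.1% to 17.2%) of the 1222 deserts of 200 to 300 kb, 29.4% (26.4% to 32.6%) of the 867 of 300 to 500 kb, 35.7% (31.1% to 40.5%) of the 415 of 500 to 1000 kb and 30.9% (20.2% to 43.3%) of the 68 longer ones. Per Mb beyond 100 kb from ESC islands, the same classes held 5.29, 4.40, 2.80 and 0.731 members. NPC islands of all widths covered 4.17%, 3.47%, 2.06% and 0.394% of that length. The deserts of over 1000 kb held 59 members, or 3.81%, in 80.7 Mb.

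The 5 deserts with most members were 546.6 to 975.4 kb long. The one at 178509601 to 179254000 on chromosome 2 (744.4 kb) held 43 NPC islands, 24 of them members. The one at 94494601 to 95470000 on chromosome 15 (975.4 kb) held 31 with 21 members and no broad island. The next, at 115455801 to 116161800 on chromosome 9, 96804201 to 97350800 on chromosome 5 and 86463401 to 87374000 on chromosome 15, held 19, 17 and 15 members among 34, 26 and 32 NPC islands. NPC islands covered 9.29% to 31.4% of these 5 deserts. The ESC island after the chromosome 2 desert was 6.4 kb wide with 575 reads. The other ESC islands at their edges were 0.6 to 2.6 kb wide with 107 to 198 reads, beside a median width of 3 kb over all ESC islands of these chromosomes.

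ESC islands at the edges of deserts with several members differed from those at the edges of deserts without NPC islands. Each desert counts its 2 bounding ESC islands, so that an island between neighbouring deserts counts for both. In the 85 deserts with 5 or more members, 18.2% (12.7% to 24.9%) of bounding ESC islands were dense and narrow, meaning at most 2000 bp wide with at least 120 reads per kb. The share was 37.7% with 1 to 4 members, 44.5% with an NPC island but no member and 67.2% (65.1% to 69.3%) without NPC islands, against 17.5% of all ESC islands. An NPC island overlapped 31.8% (24.8% to 39.3%), 22.7%, 17.2% and 5.73% (4.76% to 6.84%) of the bounding ESC islands in the same order, against 40.8% of all ESC islands. Here and below, the desert groups were set by the NPC islands inside them. The overlap uses the same NPC list as the grouping, so it is a description and no separate support.

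Deserts with more members were also longer, so a similar comparison was made in deserts of 300 to 500 kb. Its groups, of 3 or more and of 1 or 2 members, differ from those above, so the shares are not matched group by group. There the dense and narrow share was 20.5% (15.1% to 26.8%) around the 100 deserts with 3 or more members, 43.2% around those with 1 or 2, 55.3% around those with an NPC island but no member, and 69.8% (66.3% to 73.1%) around the 366 without NPC islands. Overlap with an NPC island was 34% (27.5% to 41.0%), 20%, 12.0% and 3.83% (2.56% to 5.48%). Median density of the bounding islands was 97.1 reads per kb (SD 34.2) in the first group and 143 (SD 34.7) in the last. Dense and narrow ESC islands also help to set where deserts are. Leaving them out before distances were taken gave 2264 members and 37.7% of deserts with a member. Their part in the pattern at the edges was not tested.

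**Figure D4:**
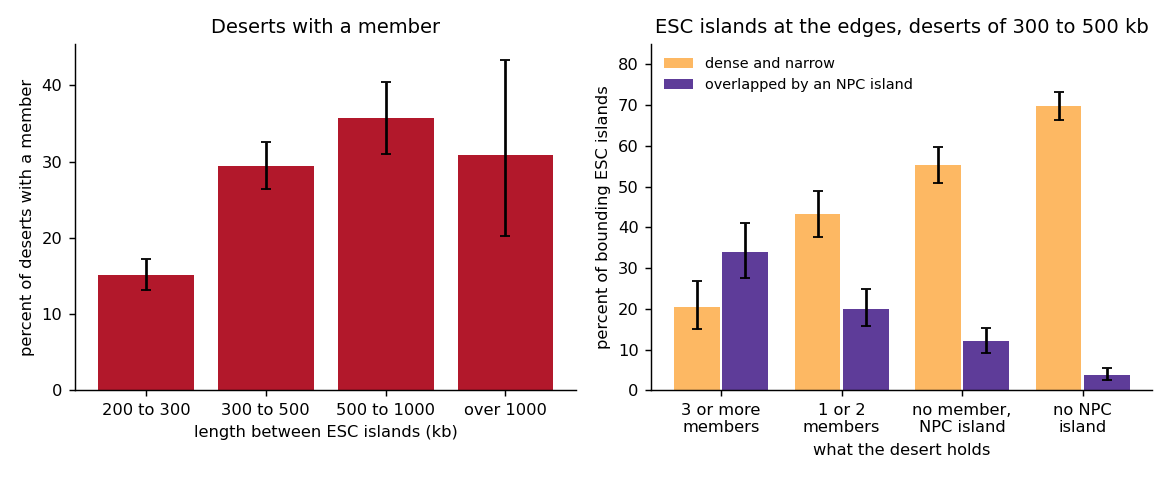
Left, percent of deserts with at least 1 member in 4 classes of desert length in kb; right, for deserts of 300 to 500 kb grouped by what they hold, the percent of bounding ESC islands that were dense and narrow (orange) or overlapped by an NPC island (purple), with exact 95% intervals that treat deserts or islands as independent draws. The dense and narrow share goes from 20.5% to 69.8% and the overlap from 34% to 3.83% between deserts with 3 or more members and those without NPC islands.

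Members were most frequent toward the distal ends of chromosomes, the ends away from the centromere in the mouse. Each chromosome was cut into 10 equal segments from its first to its last island. The first 8 segments held 1.72 to 3.13 members per Mb of sequence beyond 100 kb from ESC islands, the ninth 5.87 and the last 8.37. The last segment held 335 members (21.6%) in 8.37% of that length, whereas it held 14.8% of NPC islands within the width and density limits and 12.2% of ESC islands. Islands of all these kinds were thus more frequent there, and members more so, with the clusters of 10 or more counted in.

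Within 10 Mb of the last island of each chromosome lay 243 members (15.7%, 13.9% to 17.6%), in 6.24% of the length available to members. Of NPC islands 10 to 100 kb from ESC islands, 11.6% lay there (11.04% to 12.2%). Members in clusters of 5 or more were there in 24.6% of cases (21.1% to 28.3%), and 74 of the 165 members in clusters of 10 or more were (44.8%, 37.1% to 52.8%). Those 165 members formed only 12 clusters. Most of the 74 lay in the clusters of 24, 19, 18 and 12 members on chromosomes 2, 9, 15 and 4. Both intervals treat members as independent draws, though members of 1 cluster are neighbours by definition, so they are likely too narrow. Without the 12 clusters of 10 or more, the distal share of members was 12.2% (10.5% to 14.1%). That interval includes the 11.6% of NPC islands 10 to 100 kb from ESC islands. No clusters were left out of that class, so the 2 shares are not alike. There were 8.15 members per Mb in the distal part and 2.91 elsewhere, a ratio of 2.80. Without the clusters of 10 or more these were 5.67 and 2.71, a ratio of 2.09. No rate per Mb was taken for the class 10 to 100 kb away. The distal part had more members per Mb on 15 of 19 chromosomes. Its available length was short, from 0.34 Mb on chromosome 5 to 3.20 Mb on chromosome 3, so single clusters weigh heavily in these rates. The rate was 28.2 per Mb on chromosome 4 (24 members), 24.8 on chromosome 2 (27), 24.2 on chromosome 9 (39) and 23.5 on chromosome 15 (28). The cluster of 24 members was among those of chromosome 2. The distal rate was lower than elsewhere on chromosome 8 (2.63 against 2.83, 1 distal member) and chromosome 13 (1.34 against 3.22, 4 members). The same held for chromosome 14 (1.71 against 2.25, 3 members) and chromosome 17 (0.43 against 4.97, 1 member).

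**Figure D5:**
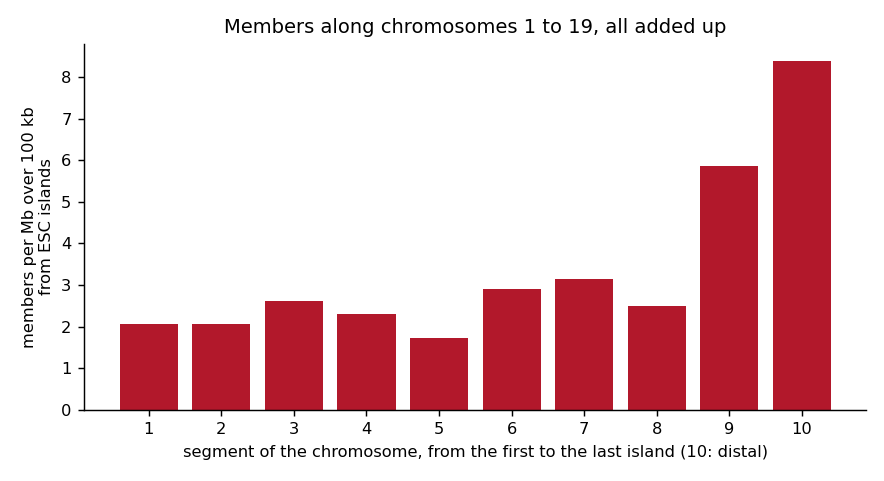
Members per Mb of sequence more than 100 kb from ESC islands (vertical axis) in 10 equal segments of chromosomes 1 to 19, counted from the first to the last island of either list (horizontal axis), with all chromosomes added up. The last 2 bars stand at 5.87 and 8.37, above the range of 1.72 to 3.13 in the other 8.

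Chromosomes differed in how many members they held. Chromosome 7 had most, at 152, followed by chromosome 9 with 148, chromosome 1 with 122 and chromosome 5 with 115, and chromosome 19 had fewest, at 25. For the available length, chromosome 9 led with 6.77 members per Mb, and chromosome 16 was lowest with 1.73. Members made up 8.46% of NPC islands within the limits on chromosome 9 and 3.12% on chromosome 16. Grouping also differed, since 76% of members on chromosome 19 and 75.4% on chromosome 4 were in clusters of 3 or more, but 24.5% on chromosome 10. There the largest cluster had 3 members, against 24 on chromosome 2. Median density of members lay between 66.4 reads per kb on chromosome 19 (SD 10.8) and 74.05 on chromosome 4 (SD 10.4), a spread smaller than the SD within either chromosome.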

How the data were processed

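ChIP-seq libraries for H4K16ac from ESC and NPC, 1 each, were used as island lists. The submitters' processing notes name SICER 1.1 (which joins enriched windows into islands), Bowtie 0.12.7, CASAVA 1.8.2, bedtools 2.10.1 and SAMtools 0.1.7 with build mm9. From the names of the lists, windows were 200 bp, the gap 600 bp and the false discovery rate 0.01. The deposited value of each island was read as its count of reads, unscaled by the authors for depth or input. Duplicate removal and the use of the input are not given in the sources used here. The lists hold no library totals, so depth is known only as reads in islands.

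Starts and widths were multiples of 200 bp in 100% of islands, with the end read as the last base. Starts and ends were moved by 1 to count from 1. Density is reads per kb of island. Distance is the number of bases between edges. Members were joined into clusters over gaps of up to 100 kb. Deserts are stretches of over 200 kb between neighbouring ESC islands. Shares have exact Clopper-Pearson 95% intervals, medians intervals from order statistics, and densities of single islands or clusters exact Poisson intervals. Distances of all 48170 NPC islands and the number of clusters (702) equalled those of bedtools 2.31.1, and the code was tested on simulated islands. With 1 library per cell type no test was run, no library could be left out, and no p-value is given.

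Islands named are the 10 clusters and 5 deserts with most members (ties by reads), the 5 members with most reads, farthest from ESC islands and densest, the 3 widest, and the 3 on either side of a limit. Members and rules were chosen with earlier results of these data known. The distal 10 Mb, segments of chromosomes, edges of deserts and merging over 2000 bp were chosen after seeing the lists. Gene annotation was not used here, because the tables at hand were on another build. Python 3.11.15, scipy 1.17.1, pandas 2.3.3, numpy 2.4.6 and matplotlib 3.10.9 were used.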

Additional observations from a re-analysis of the deposited data

How the results depend on the processing

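Alternative settings gave 50 values, of which 15 fell inside the 95% interval of the value in the report (for the number of members, within 1.5 times it) and 35 fell outside. What caused these shifts was not tested. With no density limit every value was the same, because that limit removed no island. Settings on the distal ends and on merging were added after seeing the data. No paired analysis was possible because there was 1 library per cell type. Unknown depth limits what a desert means. Leaving out ESC islands below the median read count raised the number of members from 1548 to 5519. That count can only rise when ESC islands are removed, so it does not show what another depth would give.

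The number of members was 4092 with a distance above 50 kb, 358 above 200 kb and 508 without NPC islands below the median read count. The share with another member within 100 kb was 68.7% above 200 kb, 80.03% without low-read ESC islands and 62.6% without low-read NPC islands, and 65.1% and 77.6% when counted within 50 and 200 kb. The share in clusters of 3 or more was 56.1% above 50 kb, 52.5% above 200 kb, 65.6% without low-read ESC islands, 55.2% without dense narrow ESC islands, 42.1% without low-read NPC islands, 48.8% and 64.8% with gaps of up to 50 and 200 kb, and 44.9% with NPC islands merged over 2000 bp. Median density was 70.4 reads per kb above 50 kb, 68.2 above 200 kb and 72.7 without low-read NPC islands.

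The median distance to the nearest other NPC island was 7.2 kb above 50 kb, 16.1 kb above 200 kb, 11.8 kb without dense narrow ESC islands and 11.9 kb without low-read NPC islands. A broad NPC island lay within 100 kb of 52.5% of members above 50 kb, 39.4% above 200 kb, 41.7% without low-read ESC islands, 37.9% without dense narrow ESC islands and 67.9% without low-read NPC islands. Deserts with a member were 34.99% of those over 500 kb, 30.9% of those over 1000 kb and 37.7% without dense narrow ESC islands. The distal share of members was 12.2% without clusters of 10 or more, 5.94% for 5 Mb and 28.7% for 20 Mb, where the ratio of members per Mb was 2.09, 2.26 and 2.38. Leaving out the distal 10 Mb gave 71.0% of members with another within 100 kb and 57.4% in clusters of 3 or more.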

Other observations

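The X chromosome was outside the rule, and few NPC islands were called there. Of 107 NPC islands on X, 76 were within the width and density limits and 9 of these (11.8%, exact interval 5.56% to 21.3%) lay more than 100 kb from an ESC island. Their median width was 3600 bp and their median density 61.8 reads per kb (SD 13.0). No 2 of the 9 lay within 100 kb of each other. On X, 1046 ESC islands left 272 stretches of over 200 kb between them.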
